A study of Mus musculus with 34 samples.

Results

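The 8 genes Shh, Smo, Ptch1, Gli1, Gli2, Gli3, Sufu and Hhip make up the core of the Hedgehog pathway, and their chromatin was followed here by ATAC-seq, which reads open DNA through the cuts of a transposase. All peaks whose summit lay in a gene body, up to 50 kb upstream of it or up to 5 kb downstream, were taken from the 34 peak lists of the series. This gave 1939 of the 1930325 peaks on the 19 autosomes, X and Y. Those that overlapped by at least 1 bp in any of the 34 libraries were joined, which gave 203 sites among 252803 merged regions of the genome (mm39).

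The series comprised 15 libraries of hair follicle stem cells (HFSCs) sorted from mouse skin, and 19 libraries of cultured HFSC lines. The in vivo groups were wild-type HFSCs at AnaVI (anagen VI, full growth, n = 2) and at CatVII (catagen VII, late regression, n = 6), and a further CatVII pair, Rxra WT (n = 4) and Rxra cKO (n = 3). Rxra encodes the nuclear receptor RXRα. The cKO mice carried 2 floxed Rxra alleles (fl/fl), Sox9-creER and 1 floxed R26-YFP reporter allele (fl/+), so that recombination was restricted to cells in which Sox9 drives creER, and the Rxra WT mice of the ATAC-seq sorts are described as Rxra +/+ with the same Sox9-creER and R26-YFP alleles. The general mouse methods also list controls without creER or with 1 floxed allele, and state for this Rxra cohort that all mice received tamoxifen. No tamoxifen is described for the wild-type AnaVI and CatVII mice. The wild-type HFSCs were sorted as CD34-high, integrin α6-positive cells, and those of both Rxra genotypes on YFP in place of CD34. The cultured lines carried Sox9-creER and R26-YFP fl/fl on an Rxra +/+ or an Rxra fl/fl background, had been treated with 4-hydroxytamoxifen and were established on feeder fibroblasts. They were kept in medium (Rxra WT n = 2, Rxra cKO n = 2), with apoptotic corpses made from HFSCs (Rxra WT n = 4, Rxra cKO n = 3), with corpses treated with BEL (bromoenol lactone), an inhibitor of the phospholipase iPLA2 (Rxra WT n = 4), or with AA, LPC and RA (arachidonic acid, lysophosphatidylcholine and retinoic acid, Rxra WT n = 2, Rxra cKO n = 2). The study calls the replicates biological, and the labels do not say whether culture libraries came from separate lines.

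Libraries held 4111 to 129597 listed peaks, and read depth is not in the lists, so the number of called peaks stands in for it. The 4 medium libraries stood apart with 4111 to 5709 peaks, and replicate 3 of the AA, LPC and RA Rxra WT group held 12957. Of 12 HFSC markers, 10 to 12 had a promoter peak in the CatVII Rxra WT libraries and 0 to 3 in the medium libraries. The range was 3 to 12 in the AnaVI libraries and 2 to 12 in the CatVII wild-type libraries, so the lowest of these lay within the medium range. Cd34, a defining marker, had none in any culture library. Promoter peaks were present for 0 to 4 of 7 fibroblast and dermal papilla genes (Lum at 0 in every library), 0 to 4 of 6 melanocyte genes (Tyr and Sox10 at 0 in every library) and 0 to 3 of 7 immune genes (Ptprc, Cd3e and Spi1 at 0 in every library). Of 4 endothelial genes, 0 to 1 had a promoter peak in vivo and 0 to 3 in culture, with Tie1 at 0 in every library. Other genes of these lists did have promoter peaks. In the CatVII Rxra WT group, Mitf, Dct and Pmel had one in each library. Pdgfra, Col1a1, Col1a2, Cd68, Cd74 and Kdr had one in at least 1 library of that group. The part of other cells in the values below was not tested. Rxra deletion was not checked here, since a peak list does not read the deleted exon.

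Hedgehog ligands such as Shh bind Ptch1 at the primary cilium, which releases Smo from inhibition and lets the zinc finger factors Gli2 and Gli3 act as activators rather than repressors. Sufu holds the Gli proteins in check in the cytoplasm, and Gli1, Ptch1 and Hhip are themselves targets of the pathway, the last 2 acting as negative feedback at the cell surface. In skin, Shh made by hair follicle progenitors drives the growth of the follicle in anagen.

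In mm39 (GENCODE M39), Shh spans chr5:28661813-28672254 on the minus strand, Smo chr6:29735407-29762532 on the plus strand, Ptch1 chr13:63656142-63721412 on the minus strand and Gli1 chr10:127165751-127177865 on the minus strand. Gli2 spans chr1:118761858-118982598 on the minus strand, Gli3 chr13:15637809-15904611 on the plus strand, Sufu chr19:46385324-46477243 on the plus strand and Hhip chr8:80692480-80784658 on the minus strand.

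Of the 203 sites, 112 lay in an intron of the gene, 55 upstream and 6 downstream of it, 18 within 1 kb of its own transcription start (called promoter below), and 5 at the promoter of another gene. Exons held the remaining sites, 3 coding, 3 in a UTR and 1 noncoding. Sites are named by their distance from the gene's start, counted in the direction of transcription. Gli2 had 64 sites, Gli3 43, Sufu 34, Smo 20, Ptch1 13, Hhip 12, Shh 9 and Gli1 8, in windows of 275.7, 321.8, 146.9, 82.1, 120.3, 147.2, 65.4 and 67.1 kb. The windows of Smo, Gli1 and Sufu also hold the starts of other genes, so peaks there are not particular to the member. 57 sites had a peak in a single library and 95 in at least 6.

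Sequences of sites found in skin or in culture alone, or nearly so, are printed first, since the results turn on them. All sequences are 161 bases of the mm39 plus strand around the median summit, with the searched motifs in capitals, on either strand. The GLI motif GACCACCCA stood in 1 of the 95 sites with a peak in at least 6 libraries and in 0.0440% of all 100113 regions with as many, counted in windows of 200 bases. That site lay upstream of Smo and had peaks in vivo alone. Outside the 95 sites, the Ptch1 +0.1 kb promoter, with a peak in 5 libraries, held the GLI motif too. The site upstream of Smo also holds a RUNX motif, TGTGGT, which overlaps no letter of the GLI motif and is in capitals too.
Smo -16.4 kb, chr6:29718948-29719108: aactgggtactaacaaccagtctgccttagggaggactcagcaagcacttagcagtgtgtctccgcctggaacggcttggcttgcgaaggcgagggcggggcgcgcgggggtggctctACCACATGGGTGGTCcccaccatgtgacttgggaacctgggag

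The LIM homeodomain motif TAATTA, of the kind bound by Lhx2, stood in 3 of the 7 sites with a peak in at least 6 in vivo libraries and in no culture library, against 5 of all 95 sites and 4.44% of all regions. It stood in 0 of the 10 sites that had a peak in at least 6 libraries and in no in vivo library. The 3 sequences are shown because they were found open in sorted HFSCs and in no cultured library (Gli2 +110.2 kb also holds AGATAA, the GATA motif).
Gli2 +110.2 kb, chr1:118872309-118872469: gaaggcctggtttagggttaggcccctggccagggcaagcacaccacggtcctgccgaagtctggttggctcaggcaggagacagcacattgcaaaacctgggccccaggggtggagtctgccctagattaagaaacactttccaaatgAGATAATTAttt
Gli3 +50.1 kb, chr13:15687832-15687992: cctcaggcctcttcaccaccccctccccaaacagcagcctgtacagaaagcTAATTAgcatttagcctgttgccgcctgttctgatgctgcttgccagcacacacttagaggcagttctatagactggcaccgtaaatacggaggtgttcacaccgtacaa
Gli3 +214.0 kb, chr13:15851747-15851907: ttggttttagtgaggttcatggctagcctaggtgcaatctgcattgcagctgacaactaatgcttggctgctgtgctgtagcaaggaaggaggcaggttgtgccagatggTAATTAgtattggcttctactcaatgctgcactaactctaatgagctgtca

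The AP-1 motif TGANTCA stood in 6 of these 10 sites without an in vivo peak and in 0 of the 7 in vivo sites, against 33 of the 95 sites and 33.7% of all regions. Both sets were chosen by where their peaks lay and motif matches are descriptive, so no test was made. Motifs were not counted over all regions of the genome with peaks in a single setting. Neither TAATTA nor TGANTCA is therefore read as a trait of Hedgehog sites. The 5 sequences shown are 4 sites found in culture alone or nearly so, and the Hhip +65.2 kb site of sorted cells, which also held TGANTCA. Gli3 +197.5 kb and Sufu -44.5 kb are among the 10 sites. Gli3 +87.7 kb is not, since it had a single in vivo peak. Gli2 +60.9 kb had a peak in 15 libraries, not all of them culture libraries outside medium. Capitals further mark the RUNX motif in Gli2 +60.9 kb, the nuclear receptor half-site AGGTCA in Gli3 +87.7 kb, and the SOX motif ACAAAG in Sufu -44.5 kb and Hhip +65.2 kb.
Gli2 +60.9 kb, chr1:118921603-118921763: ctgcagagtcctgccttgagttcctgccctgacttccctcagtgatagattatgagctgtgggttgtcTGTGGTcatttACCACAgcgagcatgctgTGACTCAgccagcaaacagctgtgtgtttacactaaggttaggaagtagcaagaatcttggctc
Gli3 +87.7 kb, chr13:15725389-15725549: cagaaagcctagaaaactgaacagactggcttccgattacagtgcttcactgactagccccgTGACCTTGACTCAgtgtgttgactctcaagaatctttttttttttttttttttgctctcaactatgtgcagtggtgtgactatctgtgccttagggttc
Gli3 +197.5 kb, chr13:15835223-15835383: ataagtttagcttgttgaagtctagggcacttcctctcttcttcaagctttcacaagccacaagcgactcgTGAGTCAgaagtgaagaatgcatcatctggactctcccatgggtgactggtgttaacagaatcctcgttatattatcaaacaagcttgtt
Sufu -44.5 kb, chr19:46340720-46340880: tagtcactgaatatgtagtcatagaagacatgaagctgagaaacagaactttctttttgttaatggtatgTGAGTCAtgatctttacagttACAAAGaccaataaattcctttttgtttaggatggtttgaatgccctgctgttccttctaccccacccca
Hhip +65.2 kb, chr8:80719409-80719569: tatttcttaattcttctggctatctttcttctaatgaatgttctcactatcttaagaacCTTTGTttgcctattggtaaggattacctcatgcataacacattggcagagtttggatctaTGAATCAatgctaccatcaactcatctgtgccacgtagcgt

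The other motifs stood in the 95 sites about as often as in all regions. SOX was found in 13 sites (13.7%, against 16.2% of regions), RUNX in 16 (16.8%, against 19982 of the 100113 regions), the nuclear receptor half-site in 10 (10.5%, against 11.4%), TEAD (GGAATG) in 16 (16.8%, against 17.0%), GATA in 7 (7.37%, against 8.60%) and the CTCF consensus in 2 (2.11%, against 3.17%).

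**Figure D1:**
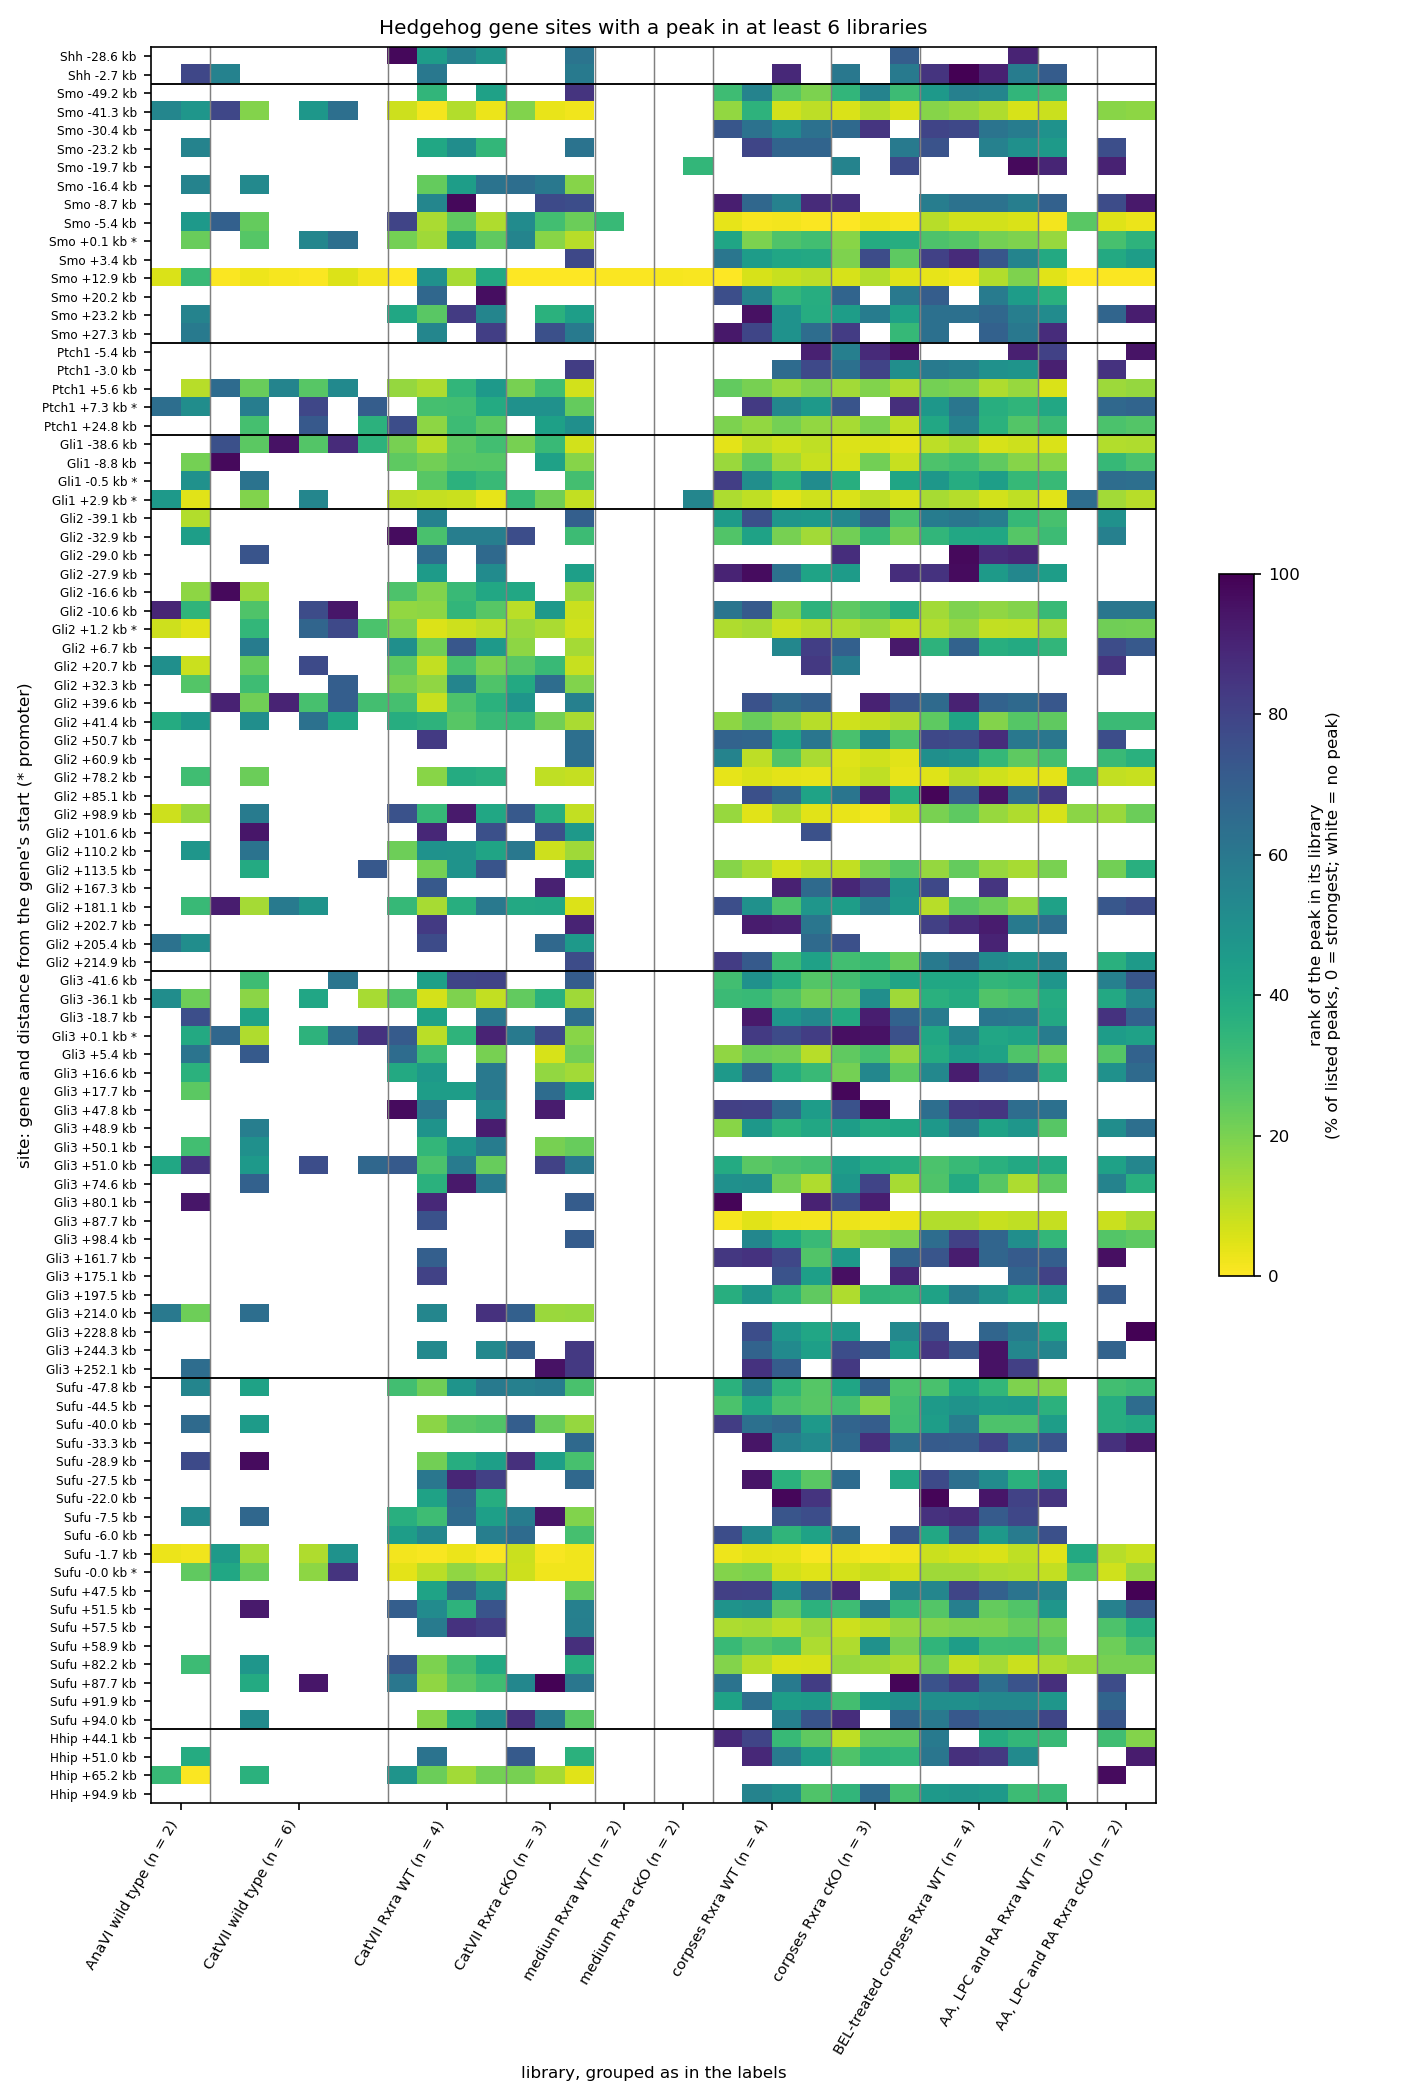
Each row is 1 of the 95 Hedgehog gene sites with a peak in at least 6 libraries and each column a library, with the colour giving the rank of the peak within its library (percent of listed peaks, yellow strongest, white no peak). Smo +12.9 kb is filled in all 34 libraries, rows such as Gli2 +32.3 kb are filled only on the in vivo side, and rows such as Gli3 +87.7 kb almost only on the culture side.

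For the ligand Shh, no library had a peak within 1 kb of a start. Shh had a peak anywhere in its window in 17 of the 34 libraries, with 34 peaks in all. The most frequent site, Shh -2.7 kb, had a peak in 12 libraries, 4 in vivo and 8 in culture, at a median fold enrichment of 5.19 over local background (the MACS3 value) and a median rank of 65.6% of the list, that is, among the weaker peaks. It was found in 4 of 4 BEL-treated libraries, at 4.77, 2.86, 4.27 and 8.10. The Shh -28.6 kb site had a peak in 4 of 4 CatVII Rxra WT libraries, in 1 of 3 CatVII Rxra cKO libraries and in 2 culture libraries. These counts come from lists of unequal length. In equal lists of the 2 CatVII genotypes, the Shh window held 1, 0 and 0 peaks in Rxra cKO and 1, 0, 1 and 1 in Rxra WT (exact permutation p = 0.486). No Shh site was callable there. In lists of equal length, the Shh window held 0 to 2 peaks per library in the comparisons below.

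For the receptor Ptch1, the promoter peaks lay at an internal start. Ptch1 +7.3 kb had a peak in 23 libraries, in 11 of 15 in vivo libraries and 12 of 15 culture libraries outside medium, at a median fold enrichment of 4.87. At the Ptch1 +0.1 kb promoter a peak was called in 5 of 15 in vivo libraries and in no culture library. The 3 CatVII Rxra WT libraries with a peak there had fold enrichments of 6.67, 4.02 and 4.21, and the CatVII Rxra cKO library 4.09, all weak peaks, with a median rank of 79.1%. The most frequent site outside the promoters, Ptch1 +5.6 kb in an intron, had a peak in 27 libraries, at 10.1, 7.40, 5.21 and 4.99 in the 4 CatVII Rxra WT libraries and at 9.06, 9.94, 9.81 and 11.1 in the 4 corpses Rxra WT libraries. It was present in both settings.

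For the signal transducer Smo, the promoter site Smo +0.1 kb had a peak in 25 libraries, and fold enrichments were similar in the CatVII Rxra WT libraries (9.80, 11.4, 5.81 and 8.75) and in the corpses Rxra WT libraries (7.46, 11.7, 10.4 and 10.6). The groups overlapped. Smo +12.9 kb, in an intron, was the only site of the 203 with a peak in all 34 libraries, and it ranked at a median of 2.26% of the list. Only 29.0% of the 25-base words in its 200-base window are unique in mm39, and the median word has 66 copies, so reads there may come from other copies. This site is therefore counted but read no further. The Smo -16.4 kb site, with the GLI motif, had a peak in 8 of 15 in vivo libraries and in none of the 19 culture libraries. Its fold enrichments were 12.8, 6.73 and 5.83 in 3 of the 4 CatVII Rxra WT libraries and 5.42, 6.16 and 13.6 in the 3 CatVII Rxra cKO libraries.

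Among the transcription factors, Gli1 had its most frequent promoter site at an alternative start inside the gene. Gli1 +2.9 kb had a peak in 27 libraries, at 12.6, 11.6, 9.13 and 12.3 in the CatVII Rxra WT libraries and at 11.8, 14.2, 18.1 and 19.7 in the corpses Rxra WT libraries. It was found in 2 of 2 AnaVI libraries (5.31 and 13.1) and in 2 of 6 CatVII wild-type libraries (7.76 and 4.98). The upstream promoter site, Gli1 -0.5 kb, had a peak in 19 libraries at a median fold enrichment of 6.44. The most frequent other site, Gli1 -38.6 kb in 27 libraries, is the promoter of R3hdm2, a neighbouring gene.

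The promoters of Gli2 and Gli3 were open in both settings. Gli2 +1.2 kb had a peak in 27 libraries, at 10.5, 15.4, 11.3 and 11.4 in the CatVII Rxra WT libraries and 12.1, 14.9, 22.6 and 21.9 in the corpses Rxra WT libraries. Gli3 +0.1 kb had a peak in 26 libraries and a lower median fold enrichment of 5.55, with ranks at a median of 58.3% of the list. The most frequent site outside the promoters lay in an intron for Gli2 (+41.4 kb) and upstream for Gli3 (-36.1 kb), each in 26 libraries, 12 in vivo and 14 in culture. Gli2 +41.4 kb had 7.14, 4.95, 6.71 and 6.93 in CatVII Rxra WT and 10.8, 11.7, 15.5 and 19.9 in corpses Rxra WT, while at Gli3 -36.1 kb the groups overlapped (8.58, 15.6, 8.90 and 11.7 against 8.29, 9.68, 12 and 16.5).

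Some sites had peaks in a single setting. 7 of the 95 sites had peaks in vivo and in no culture library (7.37%, against 7.11% of all regions with a peak in at least 6 libraries): Gli2 +32.3 kb in 10 libraries, Gli2 -16.6 kb and Gli2 +110.2 kb in 9 each, Gli3 +214.0 kb, Smo -16.4 kb and Sufu -28.9 kb in 8 each, and Gli3 +50.1 kb in 7. In the other direction, 10 sites had no in vivo peak (10.5%, against 26.1% of all regions), among them Sufu -44.5 kb in 14 libraries, Gli3 +197.5 kb, Sufu +91.9 kb and Hhip +44.1 kb in 13 each, and Gli2 +85.1 kb in 11.

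**Figure D2:**
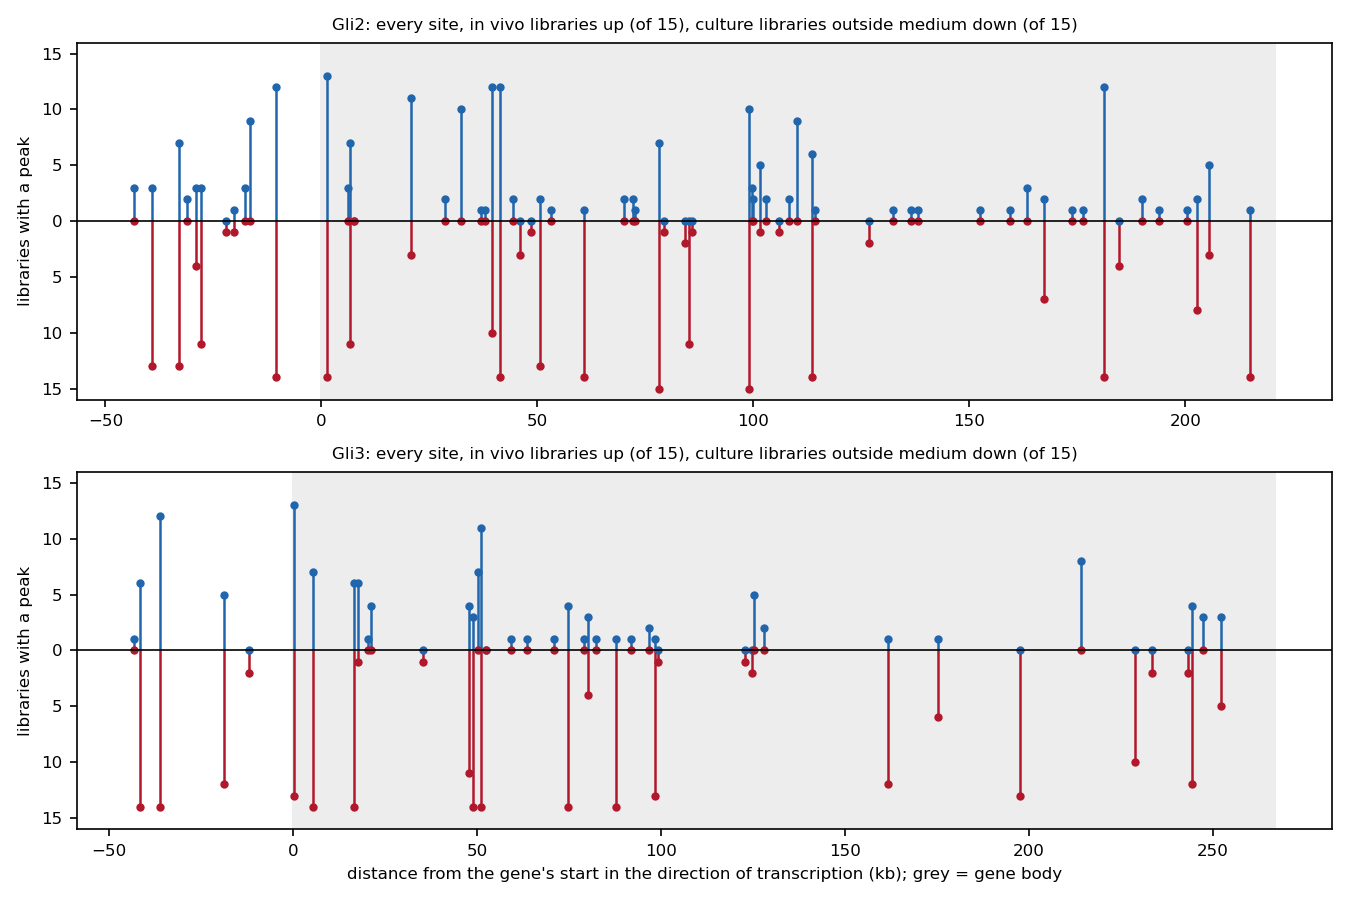
Every Gli2 and Gli3 site is drawn at its distance from the gene's start (kb, grey marks the gene body), with the number of in vivo libraries that had a peak there drawn upward in blue and of culture libraries outside medium downward in red, each of 15. Stems on both sides at the promoters, at 13 and 14 libraries for Gli2 and 13 and 13 for Gli3, contrast with stems on a single side such as Gli2 +32.3 kb and Gli3 +197.5 kb.

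Sufu, the cytoplasmic inhibitor, had a promoter peak in 27 libraries, 12 in vivo and 15 in culture. The most frequent other site of its window, Sufu -1.7 kb in 28 libraries, is the promoter of Actr1a. Hhip, the membrane inhibitor, had a peak within 1 kb of a start in 2 libraries only, 1 of each CatVII Rxra genotype. Its window held 69 peaks at 12 sites, of which Hhip +51.0 kb was the most frequent, in 4 in vivo and 11 culture libraries at a median fold enrichment of 7.62. An intronic site, Hhip +65.2 kb, had a peak in 2 of 2 AnaVI, 1 of 6 CatVII wild-type, 4 of 4 CatVII Rxra WT and 3 of 3 CatVII Rxra cKO libraries, and in 1 of the 19 culture libraries, at 3.45. Fold enrichments were 6.07 and 18.5 at AnaVI, 6.98 in the CatVII wild-type library, 6.85, 12, 10.2 and 9.65 in CatVII Rxra WT, and 10.4, 11.5 and 19.9 in CatVII Rxra cKO. The neighbouring Hhip +44.1 kb site, 21.1 kb closer to the start, showed the opposite distribution, with 0 of 15 in vivo libraries and 13 of 15 culture libraries outside medium. There, the corpses Rxra WT libraries had fold enrichments of 4.16, 5.42, 13.9 and 16.3.

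**Figure D3:**
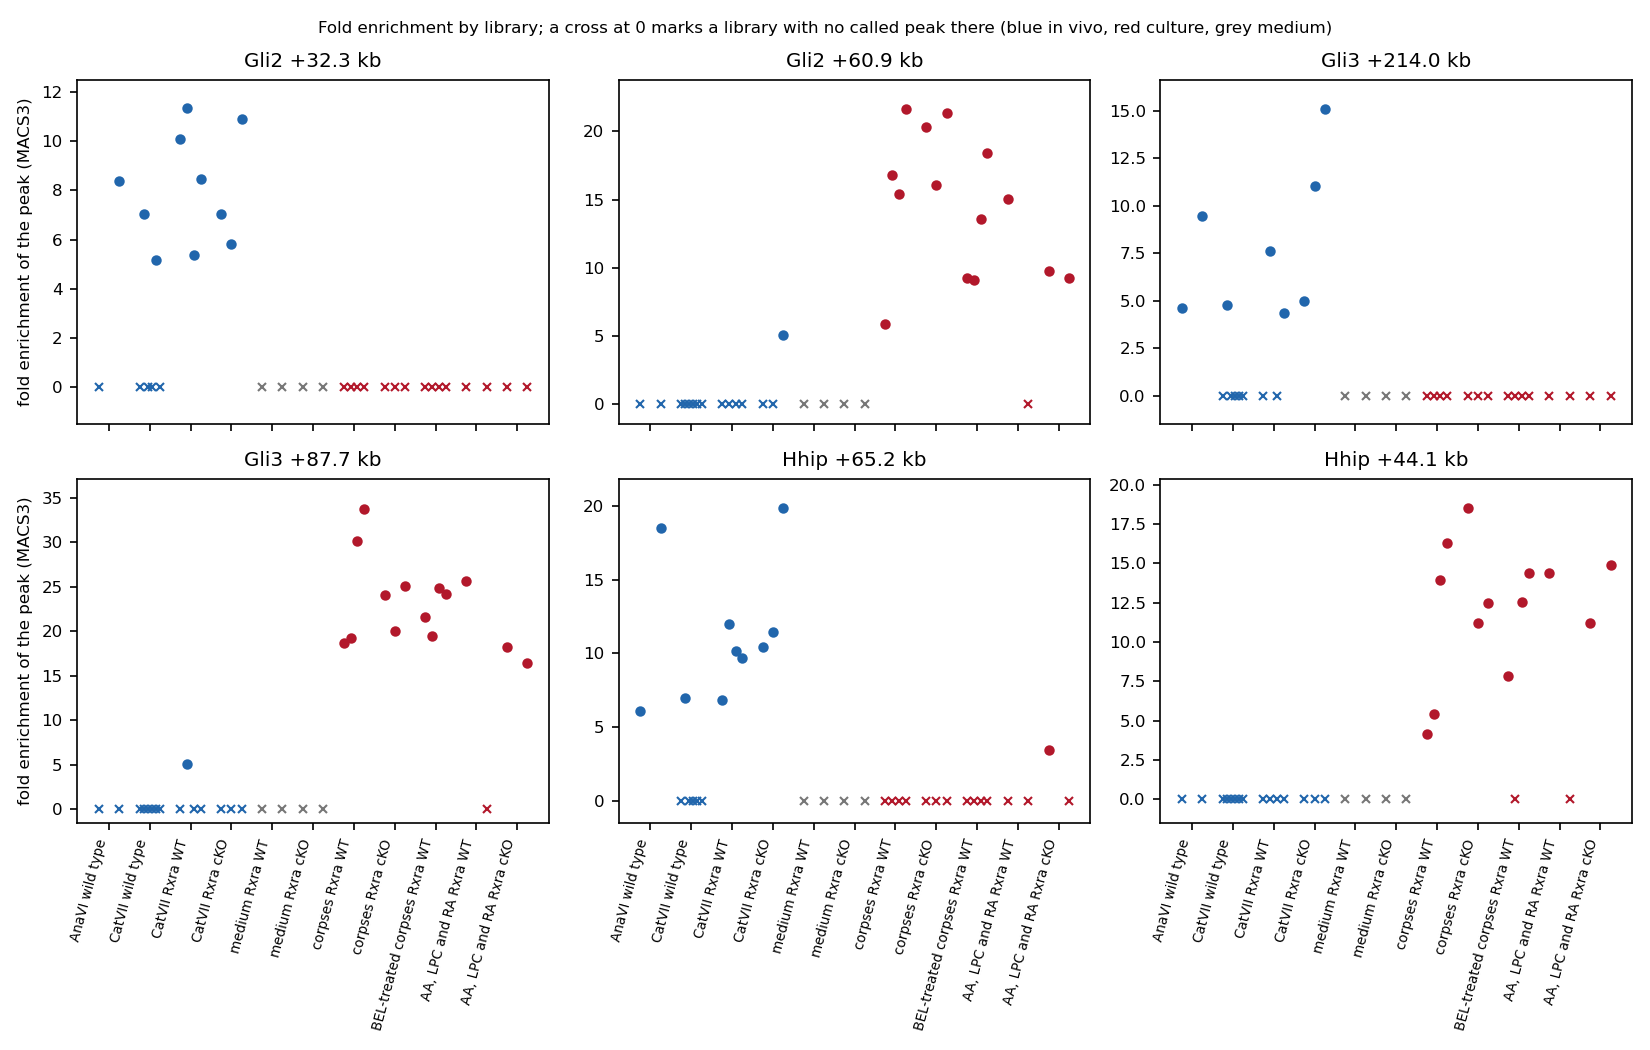
Fold enrichment (MACS3) of the peak at 6 sites is plotted for each library by group, with crosses at 0 for libraries without a called peak (blue in vivo, red culture, grey medium). Gli2 +32.3 kb and Gli3 +214.0 kb have points in vivo alone, Hhip +65.2 kb has 10 points in vivo and 1 at 3.45 in culture, and Gli3 +87.7 kb reaches 33.8 in culture against a single in vivo point of 5.15.

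The next comparisons were made on lists of equal length, the best peaks of each library by p-value, as many as the smallest library of the comparison had. A site was called specific to a group when all its libraries had a listed peak there and the libraries of the other group had none. A site could be called when at least as many libraries as the smaller group holds had a peak in it. A peak in fewer cells and a weaker peak in every cell cannot be told apart in these bulk libraries. As a measure per gene, listed peaks in each window were counted and compared with an exact permutation test of the group labels (two-sided), with Benjamini-Hochberg adjustment over all protein-coding genes with a listed peak.

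CatVII HFSCs and corpse-fed culture, both Rxra WT, were compared at a list length of 43758. Of 47 callable Hedgehog sites, 8 were specific to CatVII Rxra WT (background over all regions 13.7%) and 7 to corpses Rxra WT (background 21.6%). These are 17.0% and 14.9% of the callable sites, a little above and below the background, and nothing is read from them about the pathway as a whole. The 8 in vivo sites were 5 of Gli2 (+39.6, +32.3, +20.7, +6.7 and -16.6 kb), 2 of the Sufu window (-7.5 and +87.7 kb) and Hhip +65.2 kb. The 7 culture sites were Gli2 +60.9 kb, 3 of Gli3 (+74.6, +87.7 and +197.5 kb) and 3 of the Sufu window (-44.5, +57.5 and +58.9 kb). Shh, Smo, Ptch1 and Gli1 had no called site. With lists of 0.5 times the length 3 of the 15 calls were kept (Gli2 +20.7 kb, Gli3 +87.7 kb and Sufu +57.5 kb), and with all called peaks 7 were. The corpses libraries are 2 tagged Phago and 2 tagged NonPhago in their stored peak names, and the CatVII Rxra WT libraries are all tagged NonPhago. Without the libraries tagged Phago, which makes a call need fewer libraries, 17 sites were called, and the part of this tag was not tested.

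The called sites differed in strength. Gli3 +87.7 kb was the strongest, with fold enrichments of 18.7, 19.3, 30.2 and 33.8 in the corpses Rxra WT libraries, all within the top 4.56% of their lists, and a single CatVII peak of 5.15 that fell outside the equal lists. Gli2 +60.9 kb had 5.83, 16.8, 15.4 and 21.6 in the same libraries and no CatVII Rxra WT peak. Gli2 +20.7 kb had 9.34, 19.2, 8.80 and 10.5 in CatVII Rxra WT and a peak of 5.24 in 1 of 4 corpses libraries, also outside the equal lists. Gli2 +32.3 kb had 10.1, 11.3, 5.39 and 8.44 in CatVII Rxra WT and no culture peak. The groups at these 4 sites did not overlap, but the call rule had chosen them for having no listed peak in the other group. How often this holds over all called regions was not counted, so nothing further is read from it. At Gli2 +6.7 kb, Gli3 +74.6 kb, Sufu -7.5 kb and Sufu +87.7 kb the fold enrichments of the groups overlapped, and the call rested on rank within the equal lists.

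The same contrast in Rxra cKO libraries, an alternative added after the data had been seen, gave 10 in vivo and 10 culture sites of 44 callable (backgrounds 12.5% and 28.1%). The libraries are separate from the Rxra WT ones. 8 sites were called for the same setting in both genotypes, 53.3% of the 15 Rxra WT sites and 40.0% of the 20 Rxra cKO sites. Over all regions these shares were 54.5% of 15588 and 50.6% of 16846. The 8 sites were Gli2 +60.9, +32.3 and +20.7 kb, Gli3 +87.7 kb, Sufu -44.5, +57.5 and +58.9 kb, and Hhip +65.2 kb. All others of the 15 were not called in Rxra cKO.

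Per gene, Gli2 was the only member with an unadjusted p under 0.05 in this comparison. Its window held 12, 13, 14 and 14 listed peaks in the CatVII Rxra WT libraries and 8, 8, 11 and 8 in the corpses Rxra WT libraries, a difference of 4.50 (exact permutation p = 0.0286, the smallest these groups allow, adjusted p = 0.121). The groups did not overlap. Of all 18787 genes, 23.6% had an unadjusted p under 0.05 and 0 passed the adjustment, so the Gli2 difference did not pass either and lay in a common range. Gli3 went the other way, with 8, 9, 7 and 7 in vivo and 9, 11, 11 and 13 in culture (exact permutation p = 0.0571, adjusted p = 0.210). The Gli2 difference was 0.75 with lists of 0.5 times the length and 2.5 with a 10 kb upstream window (exact permutation p = 0.771 and 0.0857). Markers moved with the setting too, with 10 of 12 HFSC promoters listed in each CatVII Rxra WT library and 5 to 7 in the corpses Rxra WT libraries, and the part of this in the values was not tested.

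**Figure D4:**
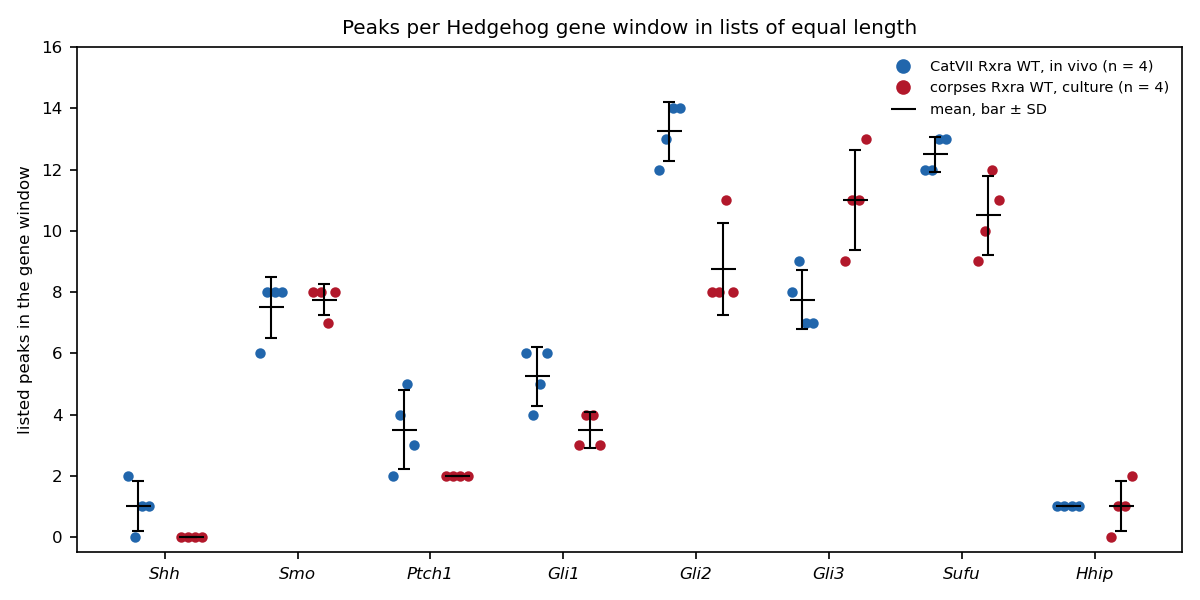
Points give the listed peaks in each gene window per library, at equal list length, for CatVII Rxra WT (blue, n = 4) and corpses Rxra WT (red, n = 4), with the mean and SD in black. Only for Gli2, at 12 to 14 against 8 to 11, are all in vivo libraries above all culture libraries, and Gli3 lies higher in culture with a tie at 9.

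Anagen and catagen HFSCs were compared in 2 ways that share the 2 AnaVI libraries. Against the 6 CatVII wild-type libraries (list length 8223), 4 of 14 callable sites were specific to AnaVI and 0 to CatVII (backgrounds 9.55% and 4.92%). The 4 were Gli1 +2.9 kb, Gli2 +98.9 kb, Gli2 +20.7 kb and Hhip +65.2 kb. At Gli1 +2.9 kb and Hhip +65.2 kb the fold enrichments given above for AnaVI and CatVII wild type overlapped. Every CatVII Rxra WT library had a peak at Gli1 +2.9 kb, Gli2 +20.7 kb and Hhip +65.2 kb, so these calls are not read as loss of a site in catagen. Against the 4 CatVII Rxra WT libraries (list length 14181), 2 of 20 callable sites were specific to AnaVI, Gli2 +98.9 kb and Gli3 +214.0 kb, and 0 to CatVII (backgrounds 7.58% and 6.05%). At Gli2 +98.9 kb, in an intron, fold enrichments were 8.42 and 9.82 at AnaVI, 4.80 in the single CatVII wild-type library with a peak, and 4.98, 9.16, 3.59 and 6.83 in the CatVII Rxra WT libraries. The Rxra WT range thus overlapped that of AnaVI, and the call there rested on rank within lists of equal length.

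Peaks per window at AnaVI were higher for Gli2 and Hhip before adjustment. The Gli2 window held 4 and 4 listed peaks in the AnaVI libraries and 0, 1, 1, 2, 2 and 2 in the CatVII wild-type libraries, and Hhip 1 and 1 against 0 in all 6 (exact permutation p = 0.0357 for each, the smallest possible, adjusted p = 0.399). In this comparison 8.95% of 15058 genes had an unadjusted p under 0.05 and 0 passed the adjustment. Against CatVII Rxra WT, Gli2 held 6 and 6 at AnaVI and 7, 4, 1 and 1 at CatVII (exact permutation p = 0.267), and Hhip 1 and 1 against 0, 0, 1 and 0 (exact permutation p = 0.400), where no p under 0.0667 was possible. The Gli3 window held 3 and 3 against 1, 2, 1 and 1 (exact permutation p = 0.0667, adjusted p = 0.634). With lists of 0.5 times that length, and with all called peaks, none of the 6 calls was kept. With all called peaks the Gli2 and Gli3 differences against CatVII Rxra WT changed direction, to means 10.2 and 8 peaks higher in CatVII, whose libraries hold 43931 to 101334 peaks against 14307 and 52455. AnaVI libraries carried the tag P33 in their stored peak names and the CatVII wild-type libraries P37, so stage and age cannot be told apart. The CatVII wild-type libraries are also 3 tagged Phago and 3 tagged NonPhago, a tag the AnaVI libraries lack. Without those tagged Phago 4 sites were called, and the part of the tag was not tested.

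Few Hedgehog sites were called between Rxra genotypes in CatVII HFSCs. At a list length of 41317, 1 of 50 callable sites was specific to the cKO libraries and 1 to the Rxra WT libraries (backgrounds 0.665% and 1.85%), both in Gli3 introns. Gli3 +51.0 kb had peaks of 5.33, 8.27, 5.30 and 8.41 in the 4 Rxra WT libraries, and 2 weaker Rxra cKO peaks of 4.94 and 4.95 that fell outside the equal lists. Gli3 +214.0 kb had peaks of 5.01, 11 and 15.1 in the Rxra cKO libraries, and 2 of 4 Rxra WT libraries had peaks of 7.60 and 4.37 outside the equal lists. At that site the ranges overlapped, and neither site was called when all called peaks were used. Rxra cKO libraries all carried the tag P42 and so did 1 of 4 Rxra WT libraries, the others P37, so the tag and the genotype cannot be told apart. Within P42, where 1 Rxra WT library is left and a call needs fewer libraries, 11 sites were called. That count stands without the share over all regions, and nothing is read from it. The stored names tag Rxra cKO replicate 3 as Phago and the other 6 libraries as NonPhago, and give Rxra cKO replicates 2 and 3 the same mouse tag, which the labels do not. The part of these tags was not tested, and 4 sites were called without Rxra cKO replicate 2 and 3 without replicate 3. No member had an unadjusted p under 0.05 (3.63% of 18563 genes did and 0 passed the adjustment). The smallest was for Gli3, with 5, 6 and 6 listed peaks against 7, 6, 7 and 7 (exact permutation p = 0.114).

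In corpse-fed culture, 3 of 71 callable sites were specific to Rxra WT and 0 to Rxra cKO (backgrounds 1.79% and 3.63%, list length 72047). They were Smo +20.2 kb in a coding exon, Gli3 +47.8 kb in an intron and Sufu -6.0 kb upstream. Smo +20.2 kb had fold enrichments of 4.94, 7.45, 12.8 and 11.4 in the Rxra WT libraries, and 2 of 3 Rxra cKO libraries had peaks of 6.39 and 6.82 outside the equal lists. None of the 3 was called with all called peaks. Rxra cKO replicate 3 and Rxra WT replicates 3 and 4 are tagged Phago, and without them, where a call needs fewer libraries, 8 sites were called. The Smo window held 9, 10 and 11 listed peaks in Rxra cKO and 13, 14, 13 and 12 in Rxra WT, a difference of -3.00 without overlap (exact permutation p = 0.0286, adjusted p = 0.409). Of 19489 genes, 6.98% had an unadjusted p under 0.05 and 0 passed the adjustment. With all called peaks the Smo difference was -1 (exact permutation p = 0.629). The effect of Rxra loss was not shown to differ between CatVII and corpse culture for any member. The largest difference of differences was 2.5 peaks for Smo, from 0.25 in CatVII to -2.25 in culture at a shared list length of 41317 (exact permutation p = 0.132, adjusted p = 0.840).

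With BEL-treated corpses, 1 of 71 callable sites was specific to BEL, Ptch1 -3.0 kb, upstream of the gene, with 0 specific to untreated corpses (backgrounds 2.26% and 0.729%, list length 63739). It had fold enrichments of 7.07, 7.51, 8.87 and 8.77 with BEL, and 7.31 and 5.83 in 2 of the 4 corpses libraries, again outside the equal lists. Replicates 3 and 4 of both groups are tagged Phago, and 11 sites were called without them. All 3 corpses Rxra cKO libraries also had a peak there, at 6.40, 5.35 and 7.75. The Ptch1 window held 4, 6, 5 and 4 listed peaks with BEL and 2, 4, 3 and 3 without, and the Gli2 window 17, 18, 14 and 17 against 13, 14, 14 and 13 (exact permutation p = 0.0857 and adjusted p = 0.605 for each). No member had an unadjusted p under 0.05, where 7.21% of 19022 genes did and 0 passed the adjustment. Gli1 held 4 peaks in each of the 8 libraries.

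Corpses against medium, both Rxra WT, could be compared at a list length of 4812 alone, and rested on the 2 medium libraries that stood apart. 3 of 5 callable sites were specific to corpses and 0 to medium (backgrounds 20.7% and 11.4%). They were Gli2 +78.2 kb, Gli3 +87.7 kb and the Actr1a promoter in the Sufu window. Gli2 +78.2 kb had 15.9, 17.9, 22.7 and 26.2 in the corpses libraries and no peak in any of the 4 medium libraries. At most 3 of the 1939 Hedgehog peaks came from any medium library, and without the repeated Smo +12.9 kb site at most 2. No p under 0.0667 was possible.

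**Figure D5:**
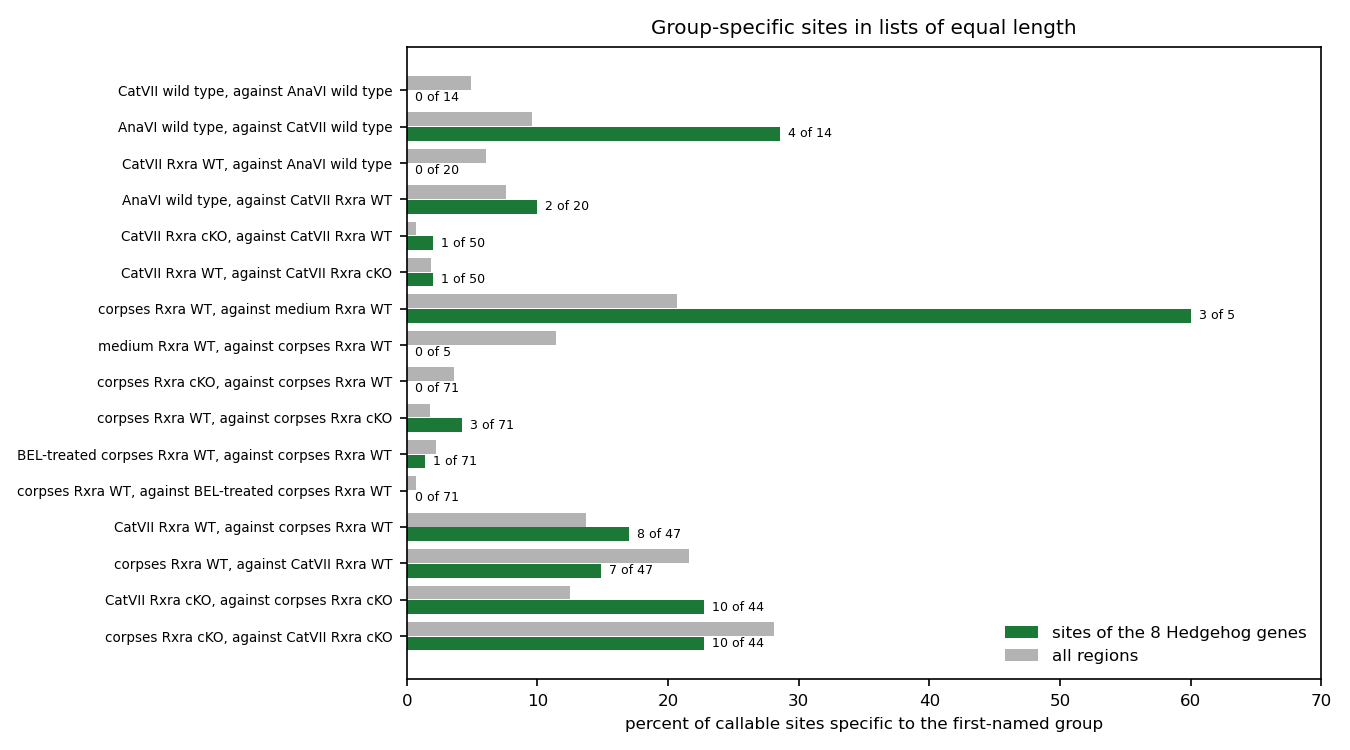
Green bars give the percent of callable Hedgehog sites specific to the first-named group and grey bars the percent over all callable regions, per comparison and direction, with counts beside the green bars. Green and grey lie close at 17.0% and 13.7% for CatVII Rxra WT against corpses Rxra WT, and the largest gaps, 4 of 14 for AnaVI and 3 of 5 for corpses against medium, rest on few sites and on 2 libraries in the smaller group.

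The AA, LPC and RA groups were not compared, since replicate 3 of the Rxra WT group held 12957 peaks and 8 Hedgehog peaks, against 89 in replicate 1. Replicate 1 and the 2 Rxra cKO libraries shared the culture sites, with Gli3 +87.7 kb at 25.7, 18.3 and 16.5 and Gli2 +60.9 kb at 15.1, 9.74 and 9.25. Replicate 3 had neither.

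The wider pathway was read from 41 further genes, all found in the annotation. In CatVII Rxra WT against corpses Rxra WT, 24 of their 134 callable sites were specific to CatVII, in 13 genes, and 15 to corpses, in 9 genes (17.9% and 11.2%, beside the backgrounds of 13.7% and 21.6% given above). The in vivo genes included the Shh co-receptors Gas1, Boc and Cdon, Spop, which encodes a ubiquitin ligase adaptor, and the cilium genes Gpr161 and Kif7. The culture genes included the ligand Dhh, the palmitoyl transferase Hhat, which lipidates the ligands, and the cyclin gene Ccnd1. In Rxra cKO libraries, 18 of 124 callable sites were specific to CatVII and 22 to corpses (14.5% and 17.7%, beside 12.5% and 28.1%). There, a Boc site at chr16:44378259-44378831 was specific to corpses, while the Boc site overlapping it in Rxra WT, chr16:44378055-44379533, was specific to CatVII, and Dhh had a site specific to each setting. For the 6 remaining comparisons, shares of callable sites are given beside those of all regions. Specific to CatVII wild type and AnaVI were 2.63% and 5.26% of 38 (beside 4.92% and 9.55%). For CatVII Rxra WT and AnaVI they were 4.84% and 8.06% of 62 (beside 6.05% and 7.58%). CatVII Rxra cKO and WT had 0.671% and 2.01% of 149 (beside 0.665% and 1.85%). Corpses and medium had 0 of 16 each (beside 20.7% and 11.4%). Corpses Rxra cKO and WT had 0.935% and 0.467% of 214 (beside 3.63% and 1.79%). BEL-treated and untreated corpses had 1.68% and 0% of 179 (beside 2.26% and 0.729%).

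Across the 30 libraries outside medium, at a list length of 8223, the number of listed peaks could be followed for Smo, Gli1, Gli2, Gli3 and Sufu. The genes most like Gli2 were Kcnip2, Htr6 and Ccdc170 (Spearman's rho 0.684, 0.667 and 0.656), and those most like Gli3 were Rfc1, Mgat4c and Rad52 (0.763, 0.670 and 0.660). Gli1 was followed at 1.000 by R3hdm2, whose window shares its peaks, and then by Gng2 and Adgrg5 (0.803 and 0.765). Sufu was followed at 0.879 by Actr1a and 2310034G01Rik, whose starts lie in its window, and Smo by Raet1e, H60b and Serpina5 (0.716, 0.694 and 0.689). These points share the depth of their libraries and are descriptive. Shh, Ptch1 and Hhip had a listed peak in fewer than 10 of the 30 libraries.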

How the data were processed

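ATAC-seq was made from 34 libraries. Per the submitters' processing notes, the tools were BWA 0.7.18, SAMtools 1.17 and 1.9, MACS3 3.0.0 and deepTools 2.0.0, and the authors called peaks in each replicate. The deposited lists hold a fold enrichment over local background (a ratio), −log10 p and q values (here −log10 p was used for ranking) and the summit, not counts or read depth. The number of called peaks stands in for depth and limits which sites can be seen.

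Groups were taken from the labels. Peaks of 19 autosomes and X and Y were kept (mm39, GENCODE M39). Peaks were ranked by −log10 p and each comparison used lists as long as its smallest library. Listed peaks that overlapped by 1 bp were joined. Windows ran from 50 kb upstream to 5 kb downstream, and peaks were assigned by summit. Listed peaks per window were compared by a two-sided exact permutation test, with Benjamini-Hochberg adjustment over all protein-coding genes with a listed peak, at 0.05. The calling code was run on simulated lists with regions planted as present throughout 1 group and absent from the other. Such a run checks the code and cannot show how calls behave at weak peaks. Analyses used Python 3.11.15, numpy 2.4.6, pandas 2.3.3, scipy 1.17.1 and matplotlib 3.10.9.

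The members and gene lists were chosen with earlier results of these data known. Named were all 8 members, their promoter sites, the most frequent other site of each, called sites (at most 8 per comparison by rank) and, of 41 other pathway genes, at most 8 per comparison with a called site. Further sites and genes named, and the sequences of Smo -16.4 kb, Gli2 +110.2 kb and Gli3 +50.1 kb, were chosen after their values were seen. Alternatives were all called peaks, lists of 0.5 times the length, ranking by fold enrichment, summits chained within 200 bp, a window from 10 kb upstream, leaving out each replicate and a replicate block. The Rxra cKO contrast of settings, the libraries tagged P42 and leaving out the libraries tagged Phago were added after the data had been seen. Replicate numbers did not pair the samples (correlations of deviations from -0.0265 to 0.0972, none over 0.1). The study calls the replicates biological and the labels number the Rxra mice. For the cultures the labels name no separate line, and p-values there measure only how far these samples spread, which may be technical. A sequence and a gene that fell under these rules are not reported here.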

Additional observations from a re-analysis of the deposited data

Results flagged for a closer look

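Fold enrichments were screened for a library far from the others of its group, in 51 groups of 4 to 10 values, where chance gives about 1 in 20. At Gli2 +20.7 kb, CatVII Rxra WT replicate 2 had a fold enrichment of 19.2 against a group median of 9.90. At Gli2 +6.7 kb, BEL-treated corpses Rxra WT replicate 2 had 6.02 against a group median of 10.3.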

How the results depend on the processing

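Depth was not in the lists, so called sites depend on the list length. With lists of 0.5 times the length, called Hedgehog sites numbered 0 for CatVII wild type against AnaVI (4 as reported), 0 for CatVII Rxra cKO against WT (2), 0 for corpses against medium (3), 1 for corpses Rxra cKO against WT (3), 0 for BEL-treated against untreated corpses (1) and 5 for CatVII Rxra WT against corpses Rxra WT (15). With all called peaks they numbered 8 for CatVII Rxra WT against AnaVI (2), 0 for CatVII Rxra cKO against WT, 53 for corpses against medium, 0 for corpses Rxra cKO against WT and 0 for BEL. The 53 rest on lists of unequal length, with 72047 to 114541 peaks in the corpses Rxra WT libraries and 4812 to 5709 in the medium Rxra WT libraries. BEL gave 0 with ranking by fold enrichment and 3 with chained summits. Within libraries tagged P42, CatVII Rxra cKO against WT gave 11. Without the libraries tagged Phago, at the same list length, corpses Rxra cKO against WT gave 8 and BEL 11, where a call needs fewer libraries. Counts under these alternatives, also where given above, and with 1 library left out stand without the share over all regions. Nothing about the pathway is read from them. Of 30 calls, 0 were kept in all 5 of these list, ranking, joining and window alternatives. The cause was not tested.

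Leaving out 1 library gave 4 to 6 called sites for CatVII wild type against AnaVI, 2 to 7 for CatVII Rxra WT against AnaVI (5 without AnaVI replicate 1, 7 without replicate 2), 2 to 5 for CatVII Rxra cKO against WT (5 and 4 without cKO replicates 1 and 2), 3 to 5 for corpses against medium (5 without medium replicate 3), 3 to 5 for corpses Rxra cKO against WT (5 without cKO replicate 3), 1 to 3 for BEL (3, 2, 3 and 3 without BEL replicates 3 and 4 and corpses replicates 2 and 3) and 15 to 23 for CatVII Rxra WT against corpses (23 without CatVII replicate 1).

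With all called peaks, the differences in listed peaks of CatVII Rxra WT against AnaVI changed direction for Gli2 (10.2, as reported -2.75) and Gli3 (8, as reported -1.75). That for Gli3 also changed direction in CatVII Rxra cKO against WT with lists of 0.5 times the length (1.08, as reported -1.08). No gene passed the adjustment under the alternatives run on this test. With the replicate block, 0 genes passed the adjustment, and the differences were 4.50 for Gli2 in CatVII Rxra WT against corpses and -3.33 for Smo in corpses Rxra cKO against WT (exact permutation p = 0.25, the smallest that 3 pairs allow).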
